A study of Mus musculus with 502 samples.

Results

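The AP-1 genes Fos, Fosb, Fosl2, Jun, Junb, Jund and Atf3 were followed in single immune cells of fresh and cold-stored mouse kidneys. The 7 members were taken by gene symbol from the count table, where they are 7 of 46603 gene rows, and each symbol matched 1 row. Together they held 0.760% of all reads counted on genes. AP-1 is a transcription factor made of a pair of basic leucine zipper proteins. Jun proteins pair with each other or with Fos proteins, Fos proteins need a partner, and Atf3, of the ATF/CREB branch, pairs with Jun proteins or with itself. Most members are immediate early genes, which are transcribed within minutes of a growth factor, stress or inflammatory signal from factors already present in the cell, and whose mRNAs are short-lived. Transcripts of several of them are also known to increase in cells during warm enzymatic dissociation of a tissue.

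All cells came from CD1 wild type mice, an outbred stock, about 3 weeks old. The fresh group was digested right after the organs, which were not perfused, had been removed. For the other groups the uncut kidney first lay in cold HTS-FRS, an organ preservative solution, and storage lasted 6 h or 1, 2, 3 or 4 days. Every group, fresh cells included, then went through the same mincing and warm Liberase digestion with agitation, and live (propidium iodide negative) Cd45+ cells were sorted into wells and read with a full-length protocol adapted from SmartSeq2, without molecular identifiers. The question was whether cold storage of the intact organ changes what single cell sequencing reads.

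The 502 cells fell into 9 groups by timepoint and by the number after IM in the cell's title, taken here as the library pool although no label defines it. The 3 pools carry the letters A to C below. In pool A there were 75 fresh cells, 76 cells kept for 6 h, 78 kept for 2 days and 2 kept for 4 days. In pool B there were 81 fresh cells, then 75 from day 1, 82 from day 3 and 19 from day 4. Pool C held 14 cells, all from day 4. No label names an animal, and for each timepoint kidney tissue of 1 mouse was pooled per the methods, so a timepoint within a pool is 1 sample and cells are not replicates of a condition. There is therefore no replicate check on any difference below, and no p-value was computed. Time can be compared with fresh cells only inside pools A and B.

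Reads on genes per cell ran from medians of 417385 to 1128166 across the groups of 14 or more cells. Pool B on day 4 stood apart. Its median cell had reads on 1130 genes against 1672.5 to 2987 in the other groups of that size, and Ptprc, which encodes the sorted surface protein Cd45, had a read in only 42.1% of its cells. On day 3 the share for Ptprc was 80.5%, and in all other groups it was at least 85.7%.

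Cells were also gated on 1 gene each. The first 4 gates needed at least 10 reads of their gene and fewer than 10 of each other gene of those 4. The gate genes were Cd3e, a subunit of the T cell receptor complex, Cd79a, of the B cell receptor, C1qb, a complement component made by tissue macrophages, S100a8, a neutrophil calprotectin subunit, and, for cells under 10 reads of all of these, Csf1r, the macrophage colony-stimulating factor receptor. Csf1r was no bar to the other gates, and had a read in 92.7% of C1qb-gated and 38.3% of S100a8-gated cells. Other markers of each lineage were read in these gates. Cd3d had a read in 86.8% of Cd3e-gated cells, Cd79b in 100% of Cd79a-gated cells, C1qa in 98.4% of C1qb-gated cells, S100a9 in 85.1% of S100a8-gated cells and Cd68 in 90.3% of Csf1r-gated cells. The last 2 gates were less uniform. In the S100a8 gate the neutrophil genes Retnlg and G0s2 were read in 51.1% and 48.9% of cells, the monocyte gene Ly6c2 in 46.8% and Cd3d in 31.9%. In the Csf1r gate Ccr2 was read in 69.4%, Ly6c2 in 47.2%, Adgre1 in 31.9%, C1qa in 9.72%, and the dendritic cell genes Flt3 and Cd209a in 8.33% and 6.94%. Gates are therefore called by their gene and not by a cell type.

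The gates took very different shares of the groups, and this moves with every comparison over all cells. Fresh cells of pool A held 9 Cd3e-gated, 0 Cd79a-gated, 7 C1qb-gated, 21 S100a8-gated and 29 Csf1r-gated cells. Fresh cells of pool B held 44, 16, 8, 0 and 4 in the same order. Day 1 cells numbered 7, 14, 22, 6 and 11 in that order. On day 2 there were 29 Cd79a-gated cells and 1 S100a8-gated cell, and on day 3 there were 54 C1qb-gated cells of 82. Values are therefore given over all cells and again inside the gates.

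The sequences before the start sites of 4 members are shown because these members carry most of the AP-1 reads or were read together in the same cells. Each is the RefSeq promoter of build GRCm38.p6, from 250 bases before to 50 bases after the RefSeq start site, written 5′ to 3′ on the strand of the gene. Capitals mark TGACG (the start of the cyclic AMP response element TGACGTCA, and so contained in it), TGACATCA and TATAAA. Fos lies at chr12:85473640-85473939 on the plus strand, Fosb at chr7:19309996-19310295, Junb at chr8:84978699-84978998 and Jun at chr4:95052173-95052472, all on the minus strand.
Fos: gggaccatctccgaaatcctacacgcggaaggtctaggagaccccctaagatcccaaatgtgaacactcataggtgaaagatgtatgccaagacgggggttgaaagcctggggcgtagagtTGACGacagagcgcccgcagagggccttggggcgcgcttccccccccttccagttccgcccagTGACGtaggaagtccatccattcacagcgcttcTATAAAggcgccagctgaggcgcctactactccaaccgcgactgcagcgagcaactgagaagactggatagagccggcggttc
Fosb: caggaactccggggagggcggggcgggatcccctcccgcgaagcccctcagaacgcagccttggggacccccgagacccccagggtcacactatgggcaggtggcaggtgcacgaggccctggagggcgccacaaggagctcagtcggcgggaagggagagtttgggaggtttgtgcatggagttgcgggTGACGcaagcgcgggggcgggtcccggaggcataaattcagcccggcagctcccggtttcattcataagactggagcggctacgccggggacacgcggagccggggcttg
Junb: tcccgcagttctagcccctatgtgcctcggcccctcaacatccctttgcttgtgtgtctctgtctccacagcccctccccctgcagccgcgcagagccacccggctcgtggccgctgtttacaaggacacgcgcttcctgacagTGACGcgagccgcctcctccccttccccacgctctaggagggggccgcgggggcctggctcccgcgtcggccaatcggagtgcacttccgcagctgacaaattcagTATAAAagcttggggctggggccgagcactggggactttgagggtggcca
Jun: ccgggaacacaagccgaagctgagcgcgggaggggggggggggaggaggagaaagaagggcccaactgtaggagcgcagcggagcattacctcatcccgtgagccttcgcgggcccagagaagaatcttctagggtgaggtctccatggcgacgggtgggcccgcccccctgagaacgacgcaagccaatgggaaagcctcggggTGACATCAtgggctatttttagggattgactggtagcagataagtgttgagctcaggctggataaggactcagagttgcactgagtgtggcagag

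Both strands of all 27025 RefSeq promoter windows of this length were searched for the same letters. TGACG was found in 21% of them, the whole TGACGTCA in 1.88%, TGACATCA in 3.76%, TATAAA in 14.2% and the other AP-1 element, TGACTCA, in 5.17%. With position 0 as the RefSeq start, TGACG began at −129 and −66 in Fos, at −60 in Fosb and at −106 in Junb. The Jun window held TGACATCA from −45 and no TGACG. Atf3 held TGACG on the opposite strand from −7, and the windows of Fosl2 and Jund held none of these motifs. TATAAA began at −33 in Fos and at 0 in Junb. The GENCODE start of Junb, at chr8:84978718, lies downstream of its RefSeq start and of that TATAAA. These are matches of letters, and nothing in the series measured binding. The RefSeq start used here and the GENCODE start are the same base for Fos and Jun and differ for the other 5 members. Motif positions in those 5, and windows without a motif such as that of Fosl2, therefore do not refer to the GENCODE start.

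Fos, which supplies the short-lived partner of Jun proteins, had the highest level of the 7 per length in every group of 14 or more cells but 1. Levels between genes were compared as CPM (counts per 1000000 of the summed counts of a group), divided by the exon length in kb from GENCODE M21. On this scale Fos stood at 1083 CPM per kb in fresh cells of pool A, 1636 at 6 h, 1679 on day 2, 679 in fresh cells of pool B, 3065 on day 1, 1761 on day 3 and 1394 on day 4 of that pool. The exception was fresh cells of pool B, where Junb stood at 795 CPM per kb, above Fos.

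A Fos read was present in 67 of 75 fresh cells of pool A (89.3%, exact binomial 95% interval 80.1 to 95.3), in 82.9% at 6 h and in 62.8% on day 2. In pool B it was present in 69.1% of fresh cells (57.9 to 78.9), 90.7% on day 1 (81.7 to 96.2), 68.3% on day 3 and 36.8% of 19 cells on day 4. Intervals of this kind are taken over cells and cover counting error only, because the cells of a group share a mouse. Sums of reads carry no interval here, as reads are not independent molecules without molecular identifiers. Over single cells, in rpm (reads of a gene per 1000000 reads on all genes of the cell), the median was 1630 in fresh cells of pool A, 1968 at 6 h and 1500.4 on day 2, and the highest cell reached 17834, 17328 and 30233 rpm. In pool B the median was 783.5 rpm fresh, 4614 on day 1, 671 on day 3 and 0 on day 4. The ranges over cells overlapped in all groups, since each held both a cell without a Fos read and a cell above 1000 rpm.

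In summed counts Fos was 1596 CPM in fresh cells of pool B and 7209.9 CPM on day 1, a log2 ratio of 2.18, and 4142 CPM on day 3, a log2 ratio of 1.38. In pool A it was 2548 CPM fresh, 3848 at 6 h and 3948 on day 2, with log2 ratios of 0.59 and 0.63. On the mean of log2(rpm + 1) over cells, which gives weight to cells without a read, the differences were −0.26 at 6 h and −2.25 on day 2, the direction opposite to the sums, and 4.16 on day 1 and 0.38 on day 3. Fewer cells held Fos on day 2 than fresh, yet the upper quartile over cells was 6232 rpm against 2650 rpm, so reads were spread over fewer and higher cells. On day 4 of pool B, 1 cell held 50.3% of all Fos reads. The log2 ratio there was 1.04 over sums, 0.38 without that cell in each group, and −3.13 on the mean of log2(rpm + 1), again opposite to the sums.

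Fosb, a Fos relative induced with it, was far lower. It stood at 25.5 CPM per kb in fresh cells of pool A and 7.05 in those of pool B. A read was present in 46.7% of fresh cells, 36.8% at 6 h and 32.1% on day 2 in pool A, and in 25.9% of fresh cells, 45 of 75 cells on day 1, 34.1% on day 3 and 10.5% on day 4 in pool B. Among groups of 14 or more cells, only day 1 and day 4 of pool C had a median cell with a Fosb read. The median was 280 rpm on day 1, and in pool C a read was present in 8 of 14 cells. The sum on day 1 was 542 CPM against 44.03 CPM in fresh cells of the same pool. This is a log2 ratio of 3.62, the highest of the 7 in that comparison.

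Fosl2, which encodes the Fos-related protein Fra-2, had its highest share in fresh cells of pool A. A read was present in 55 of 75 fresh cells of pool A (73.3%, interval 61.9 to 82.9), 34 of 76 cells at 6 h (44.7%, 33.3 to 56.6) and 12 of 78 on day 2 (15.4%, 8.21 to 25.3). The sums were 370 CPM, 169.2 CPM and 23.1 CPM, giving log2 ratios to fresh cells of −1.13 and −4.00. In pool B the share was 17.3% fresh, 36 of 75 cells on day 1, 15.9% on day 3 and 1 of 19 cells on day 4. The day 4 sum was under the minimum count and gives no ratio.

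Gates moved with the Fosl2 values. In fresh cells of pool A, Fosl2 was read in 20 of 21 S100a8-gated cells (median 271 rpm), 22 of 29 Csf1r-gated cells (136.3 rpm) and 6 of 9 Cd3e-gated cells (58.1 rpm), but in 1 of 7 C1qb-gated cells. In fresh cells of pool B it was read in 0 of 16 Cd79a-gated and 1 of 8 C1qb-gated cells. The S100a8 and Csf1r gates together took 50 of 75 fresh cells of pool A and 6 of 78 cells of day 2. Inside the Csf1r gate the log2 ratio of day 2 to fresh was −0.57, where 5 cells stood against 29, and inside the Cd3e gate it was −4.89. The ratio of 6 h to fresh was −1.55 in the Cd3e gate, −1.29 in the Csf1r gate and −0.20 in the S100a8 gate. The part of the gates in the difference over all cells was not tested.

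**Figure D1:**
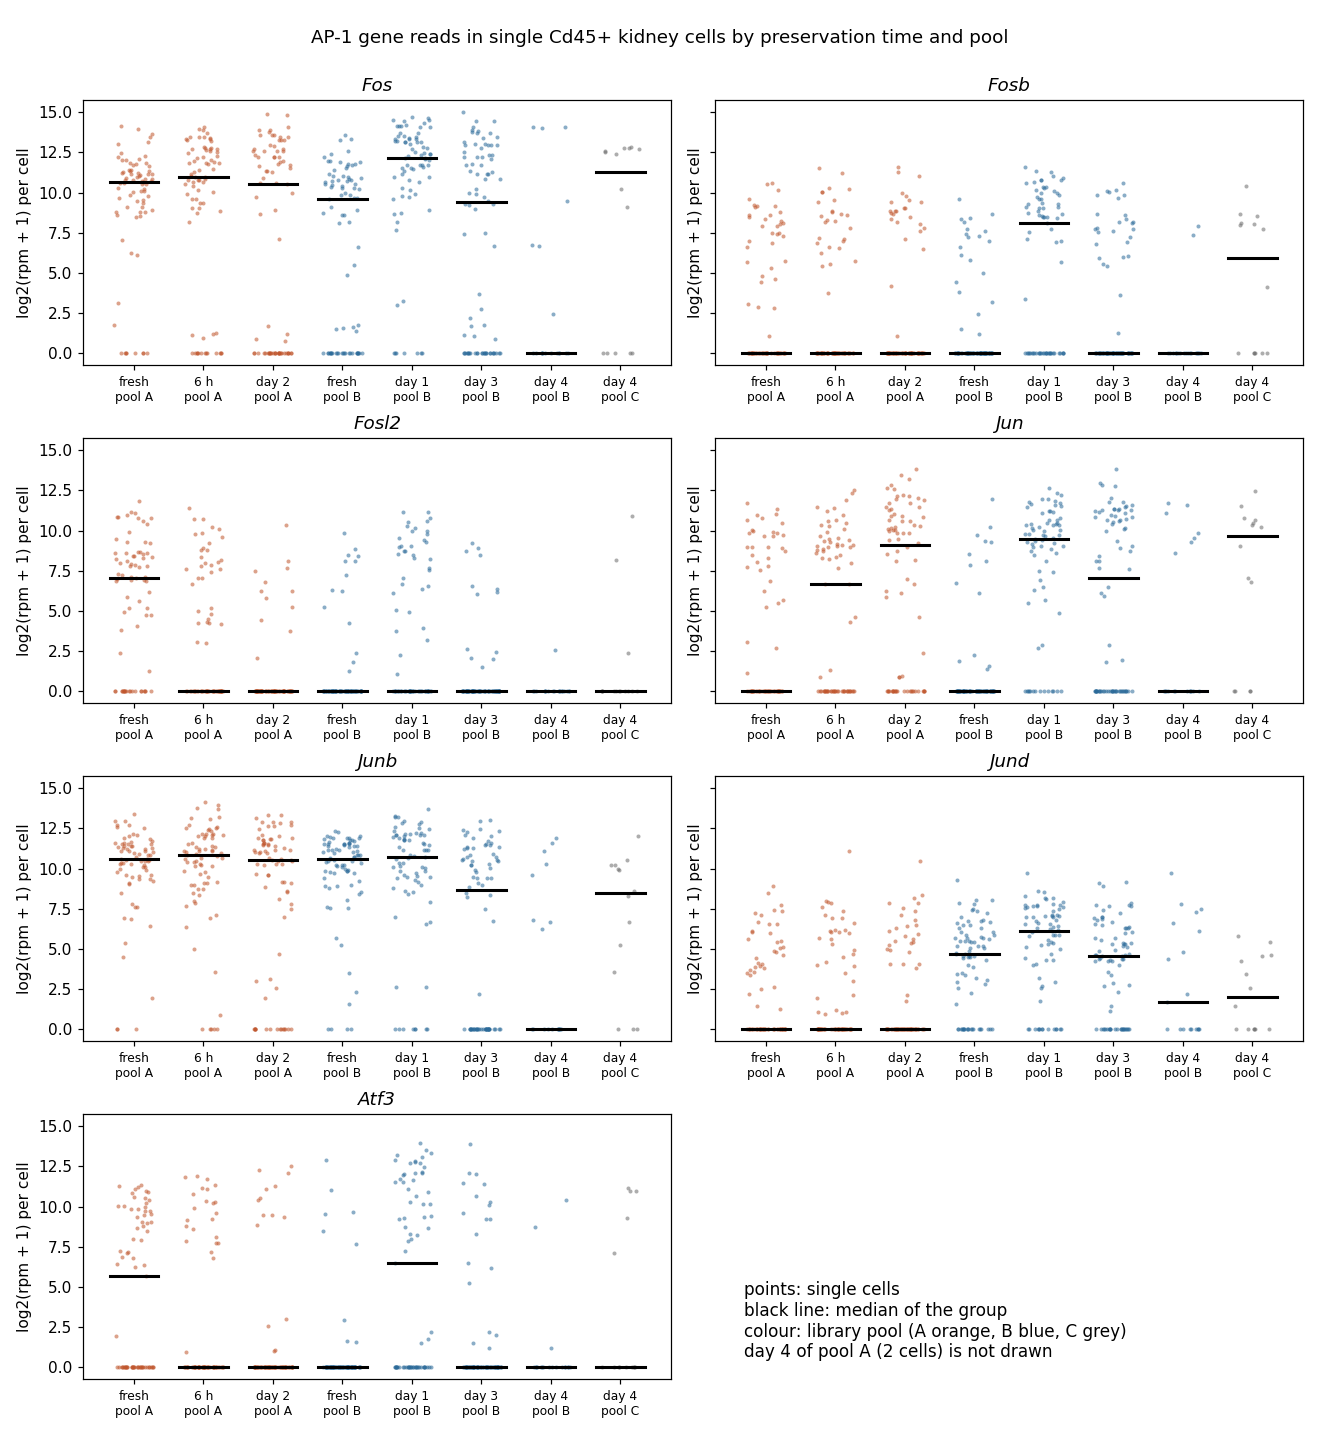
Reads of the 7 AP-1 genes per cell, as log2(rpm + 1), by timepoint and pool, with 1 panel per gene, 1 point per cell and a black line at each group's median. Fos and Junb were read in most cells of most groups, the Jun median was 0 in both fresh groups and above 0 at 6 h and on days 1, 2 and 3, and of the groups drawn only fresh cells of pool A had a Fosl2 median above 0.

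Jun, the partner that gives AP-1 much of its activating capacity, had a read in more preserved than fresh cells in both pools. In pool B a Jun read was present in 14 of 81 fresh cells (17.3%, interval 9.78 to 27.3), 61 of 75 on day 1 (81.3%, 70.7 to 89.4), 47 of 82 on day 3 (57.3%, 45.9 to 68.2) and 7 of 19 on day 4 (36.8%, 16.3 to 61.6). In pool A it was present in 34 of 75 fresh cells (45.3%, 33.8 to 57.3), 43 of 76 at 6 h (56.6%, 44.7 to 67.9) and 54 of 78 on day 2 (69.2%, 57.8 to 79.2), and on day 4 of pool C in 10 of 14. The fresh share was the lowest of its pool in both pools, and the fresh shares of the pools also differed from each other. Each interval covers the cells of 1 sample, so the intervals are no test between timepoints or pools.

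The median cell held 0 rpm of Jun in both fresh groups, 101.2 rpm at 6 h, 553 rpm on day 2, 722 rpm on day 1, 140.9 rpm on day 3 and 864 rpm on day 4 of pool C. Summed counts gave 121.2 CPM in fresh cells of pool B, 1248 CPM on day 1, 1237 CPM on day 3 and 598 CPM on day 4. The log2 ratios to fresh cells were 3.36, 3.35 and 2.30. In pool A the sums were 423 CPM fresh, 578 at 6 h and 1324 on day 2, with log2 ratios of 0.45 and 1.65. A single fresh cell of pool B held 49.1% of that group's Jun reads, and without the top cell of each group the ratios on days 1 and 3 were 4.20 and 4.16. Against the fresh cells of both pools they were 2.15 and 2.14. After thinning every cell to 100000 reads, which leaves out 8 shallower cells, the shares with a Jun read were 12.5% in fresh cells of pool B, 81.1% on day 1, 55.6% on day 3, and 41.9% fresh and 65.4% on day 2 in pool A.

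Inside the gates the values were as follows. Among Cd79a-gated cells, Jun was read in 1 of 16 fresh cells of pool B, with a single read, and in 14 of 14 cells on day 1 (interval 76.8 to 100), where the median cell held 975 rpm, and in 2 of 5 on day 3. In pool A, which had no fresh cell in this gate, it was read in 5 of 8 Cd79a-gated cells at 6 h and 23 of 29 on day 2, where the median was 703 rpm.

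Among Cd3e-gated cells a Jun read was present in 4 of 44 fresh cells of pool B (9.09%, interval 2.53 to 21.7) and in 4 of 7 cells on both day 1 (57.1%, 18.4 to 90.1) and day 3. The sums were 10.4 CPM fresh, 390.0 CPM on day 1 and 1275 CPM on day 3. In pool A it was present in 2 of 9 fresh cells, 9 of 20 at 6 h and 6 of 16 on day 2, and the sums were 18.7, 782 and 575 CPM. The lowest sum was in the fresh cells in both pools, while in every group some Cd3e-gated cells had no Jun read.

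Fresh C1qb-gated cells held Jun. It was read in 7 of 7 fresh cells of pool A (median 1411 rpm) and 5 of 8 of pool B (170 rpm), and then in 3 of 5 at 6 h, 12 of 15 on day 2, 18 of 22 on day 1 (1402 rpm), 33 of 54 on day 3 (351 rpm) and 3 of 10 on day 4. The log2 ratio of sums to fresh cells was −0.20 at 6 h, 0.10 on day 2, 1.45 on day 1, 0.68 on day 3 and −0.86 on day 4. In pool A, Csf1r-gated cells had a Jun read in 14 of 29 fresh cells, 10 of 14 at 6 h and 4 of 5 on day 2, and S100a8-gated cells in 6 of 21 fresh cells and 8 of 16 at 6 h. In pool B, which had 4 and 0 fresh cells in these gates and so gives no comparison there, Jun was read in 11 of 11 Csf1r-gated cells on day 1, 5 of 6 on day 3, and 4 of 6 S100a8-gated cells on day 1. Inside the gates there were 14 comparisons of preserved with fresh cells, which share fresh cells. The summed Jun CPM was higher in 12 and lower in 2, both in the C1qb gate. Jun reached the minimum count in 12 of the 14, and was at least 2-fold higher in 7 and at least 2-fold lower in 0. The median log2 ratio of all genes tested ran from −0.38 to 0.70 over these comparisons. A count of directions alone therefore does not set a member apart from other genes. The share of cells with a Jun read was higher in 10 of the 14 and lower in 4. Summed CPM was higher in 10 and lower in 4 for Fosb and for Jund, and in 9 and 5 for Fos. It was higher in 8 and lower in 5 for Atf3, and in 5 and 9 for Junb and for Fosl2. The share of cells with a read was higher in 7 and lower in 7 for Fosb, and in 5 and 9 for Jund and for Fosl2. It was higher in 4 and lower in 10 for Fos, in 4 and 9 for Atf3, and in 1 and 11 for Junb.

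**Figure D2:**
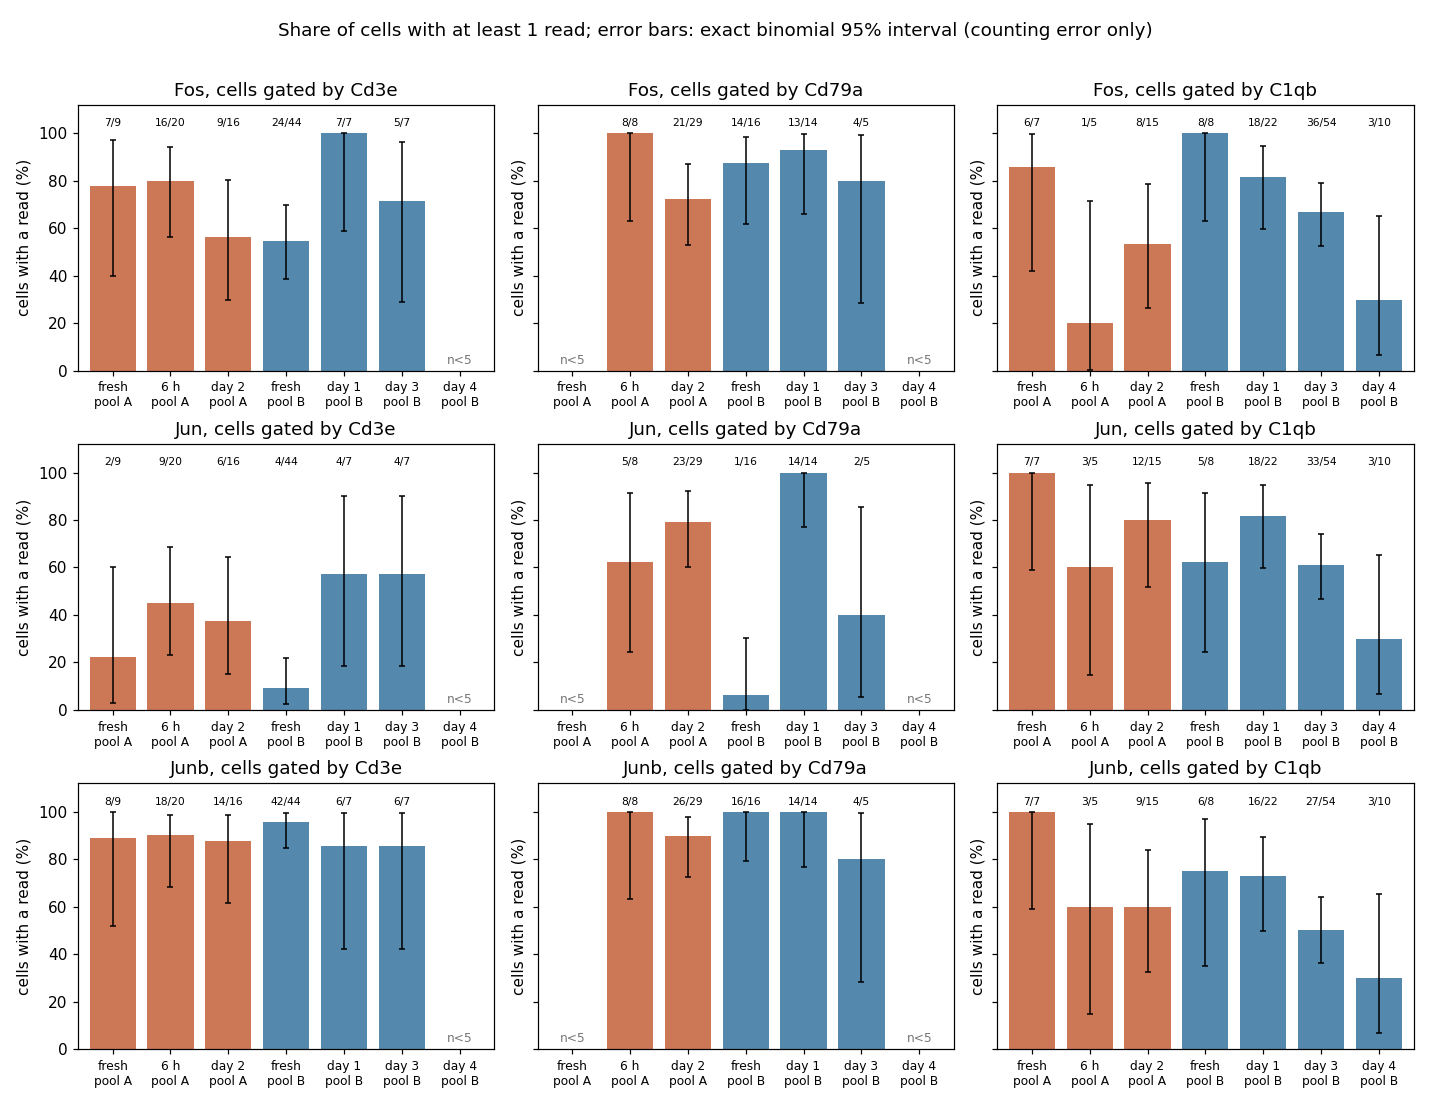
Share of cells with at least 1 read of Fos, Jun or Junb among cells gated by Cd3e, Cd79a or C1qb, by timepoint and pool, where bars are shares in percent, error bars exact binomial 95% intervals for counting error only, and the fraction over each bar gives the cells. Jun was read in 1 of 16 fresh and 14 of 14 day 1 cells of the Cd79a gate, while Junb was read in 16 of 16 and 14 of 14.

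Junb, which encodes a Jun protein that is a weaker activator than Jun and can restrain it, stayed nearer to its fresh level in the sums. A read was present in 72 of 75 fresh cells, 93.4% of cells at 6 h and 80.8% on day 2 in pool A, and in 95.1% of fresh cells, 89.3% on day 1, 57.3% on day 3 and 42.1% on day 4 in pool B. The interval was 87.8 to 98.6 in fresh cells of pool B and 45.9 to 68.2 on day 3. The log2 ratios of sums to fresh cells lay between −0.36 and 0.62 at 6 h and days 1, 2 and 3, and the ratio was −1.73 on day 4. On the mean of log2(rpm + 1) they were −0.10 at 6 h, −1.58 on day 2, −0.15 on day 1 and −3.69 on day 3, so that the direction turned at the first 3 of these times. On day 3 Junb was read in 27 of 54 C1qb-gated cells against 6 of 8 fresh, in 6 of 7 Cd3e-gated cells against 42 of 44, in 4 of 5 Cd79a-gated cells against 16 of 16, in 6 of 10 ungated cells against 8 of 8, and in 4 of 6 Csf1r-gated cells. The share was thus below the fresh one in each of the 4 classes compared. Day 3 also held 14 cells with reads on under 1000 genes, and fresh cells of pool B held 0. Junb was read in 3 of those 14 and in 44 of the other 68 cells of day 3. In the C1qb gate it was read in 2 of 9 and 25 of 45. The part of such cells in the lower share was not tested.

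Jund, the Jun gene that is expressed steadily in most resting cells, had few reads, between 12.3 and 105.8 CPM. It was read in 36 of 75 fresh cells, 44.7% of cells at 6 h and 37.2% on day 2 in pool A, and in 75.3% of fresh cells, 81.3% on day 1, 59 of 82 cells on day 3 and 52.6% on day 4 in pool B. The interval was 36.3 to 59.8 in fresh cells of pool A and 64.5 to 84.2 in those of pool B. On day 4 of pool B it was 28.9 to 75.6. The log2 ratios of sums to fresh cells ran from −0.04 to 0.97, and on the mean of log2(rpm + 1) they turned to −0.24 on day 2, −0.13 on day 3 and −1.0 on day 4.

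Within the Jun family the make-up by summed CPM per kb held more Jun on days 1 to 4 than in fresh cells of the same pool. Jun made up 12.8% of the family in fresh cells of pool A, 12.4% at 6 h and 29.9% on day 2. In pool B it made up 4.39% fresh, 23.4% on day 1, 37.1% on day 3 and 38.6% on day 4, and in pool C on day 4 it made up 53.4%. Junb went from 91.9% of the family in fresh cells of pool B to 59.4% on day 3. The C1qb gate was the gate with most Jun in fresh cells, at 41.9% and 24.3% of the family in the pools, against at most 13.3% in any other fresh gate of 5 or more cells, and C1qb-gated cells were 54 of 82 cells on day 3 and 8 of 81 in fresh cells of that pool. In the Cd3e gate Jun made up 0.393% of the family in fresh cells of pool B and 21.8% on day 3.

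**Figure D3:**
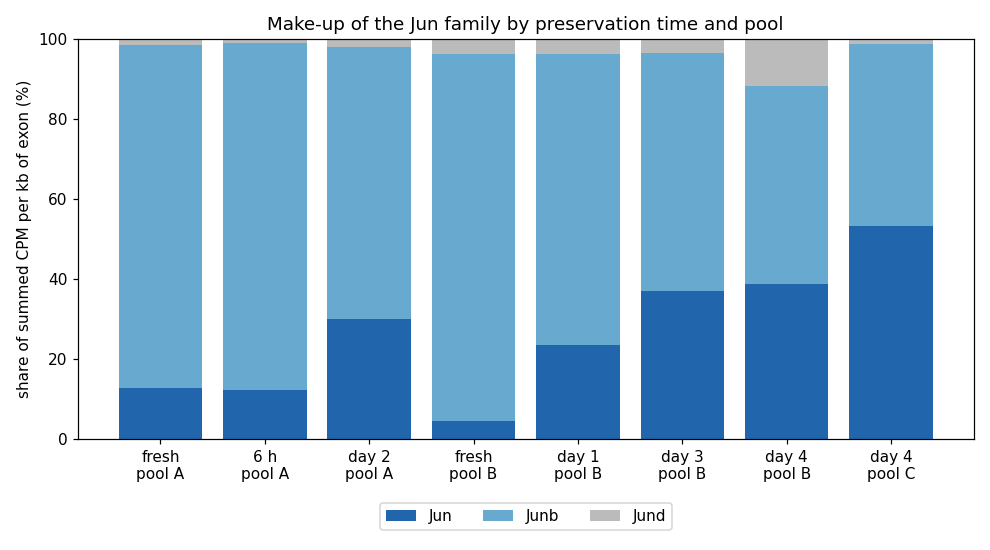
Shares of Jun, Junb and Jund in the summed CPM per kb of exon of the 3 genes, in percent, by timepoint and pool, with 1 stacked bar per group. Jun took 4.39% in fresh cells of pool B and 37.1% on day 3, and 12.8% in fresh cells of pool A and 29.9% on day 2.

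Atf3, a stress-induced member that can repress its targets, was read in 39 of 75 fresh cells, 30.3% of cells at 6 h and 19.2% on day 2 in pool A. In pool B it was read in 9 of 81 fresh cells (11.1%, interval 5.21 to 20.05), 41 of 75 on day 1 (54.7%, 42.7 to 66.2), 19 of 82 on day 3 and 3 of 19 on day 4. Its sums were 211.1 CPM in fresh cells of pool B and 2019 CPM on day 1, a log2 ratio of 3.26, and 1 fresh cell held 73.4% of that group's Atf3 reads. Without the top cell of each group the ratio was 5.02. In pool A the sums were 453, 335 and 279 CPM, so that the order of the times differed between the pools.

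Atf3 was uneven over the gates. It was read in 0 of 9 and 1 of 44 fresh Cd3e-gated cells, in 1 of 20 at 6 h and in none of 16 on day 2. On day 1 it was read in 2 of 7, with a sum of 191.5 CPM against 0.042 CPM in fresh Cd3e-gated cells of pool B, where it had a single read. Cd79a-gated cells had a read in 1 of 16 fresh cells of that pool, again a single read, and in 5 of 14 on day 1, with a sum of 2079 CPM. In Csf1r-gated cells it was read in 20 of 29 fresh cells of pool A (median 522 rpm) and in 11 of 11 of pool B on day 1 (3365 rpm), and in fresh C1qb-gated cells in 6 of 7 and 5 of 8. In the C1qb gate the log2 ratio to fresh cells was −0.32 on day 1, −1.82 on day 3 and −3.91 on day 4. The Csf1r gate took 29 of 75 fresh cells of pool A, 11 of 75 cells of day 1 and 4 of 81 fresh cells of pool B.

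Read against all other genes over all cells, day 1 was the time with the most members higher past the fold. A gene was called past the fold if its summed CPM differed at least 2-fold (a log2 ratio of at least 1 or at most −1), among genes whose sums both reached 50 counts. All 7 members passed that minimum on day 1 and 5 of them were past the fold on the higher side, Fos, Fosb, Fosl2, Jun and Atf3, beside 20.1% of the 9492 genes tested. On the lower side there were 0, beside 21%. The median of the members was 3.02 and that of all genes tested −0.08. Against the fresh cells of both pools it was 1.78. Jun lay at the 98.1 percentile of all log2 ratios, Fosb at the 98.6 and Junb at the 71.4. The groups also differed in their gates, with 44 Cd3e-gated cells of 81 fresh and 7 of 75 on day 1, and the part of this was not tested over all cells. Since the members were chosen with earlier results known, these counts describe the list and no chance was computed for them.

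On day 3, 3 of 7 members (Fos, Fosb and Jun) were higher past the fold beside 21.1% of genes, and 0 were lower beside 22.4%. The median of the members was 0.90 against −0.08 over all genes, 0.38 on the mean of log2(rpm + 1) and 1.44 without the top cell of each gene. On day 4 of pool B, 6 members passed the minimum, of which Fos and Jun were higher past the fold beside 33.2% of genes, and Junb and Atf3 were lower beside 22.8%. The median there was −0.02 against 0.25, and it ran from −0.94 without the top cell of each gene to 0.88 after thinning. On the mean of log2(rpm + 1) Fos was −3.13 and Atf3 0.26, each with its direction turned. In pool A at 6 h no member was higher past the fold, beside 21.5%, and Fosl2 was lower, beside 15.1%, with a median of 0.12 against 0.16. On day 2 Jun was higher, beside 27.1%, and Fosl2 lower, beside 18.4%, with a median of 0.20 against 0.23. These counts in pool A are near the background, while on the mean of log2(rpm + 1) the day 2 median was −1.58 against −0.33 over all genes.

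Later times were also compared with earlier ones of the same pool. From 6 h to day 2, Jun was higher past the fold at a log2 ratio of 1.20, beside 19.2% of genes, and Fosl2 lower at −2.87, beside 18.2%. From day 3 to day 4 of pool B no member was higher past the fold, beside 30%, and 4 of the 6 that passed the minimum were lower, beside 21.1%, with Fosb at −2.68, Atf3 at −2.0, Junb at −1.37 and Jun at −1.05. The day 4 group is the one with the fewest genes per cell and the lowest share of cells with a Ptprc read. Time and these differences between the groups cannot be told apart.

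Fresh cells of the 2 pools also differed from each other. From pool B to pool A, Fosl2 was higher at a log2 ratio of 3.41, Fosb at 1.85, Jun at 1.80 and Atf3 at 1.10, so 4 of 7 members were higher past the fold beside 19.1% of genes, and 0 were lower beside 28.2%. The pools differ in their gated cells, as given above. Against all fresh cells of both pools, the log2 ratio on day 1 was 0.42 for Fosl2 in place of 3.02, 2.37 for Fosb, 1.78 for Fos and 2.58 for Atf3.

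**Figure D4:**
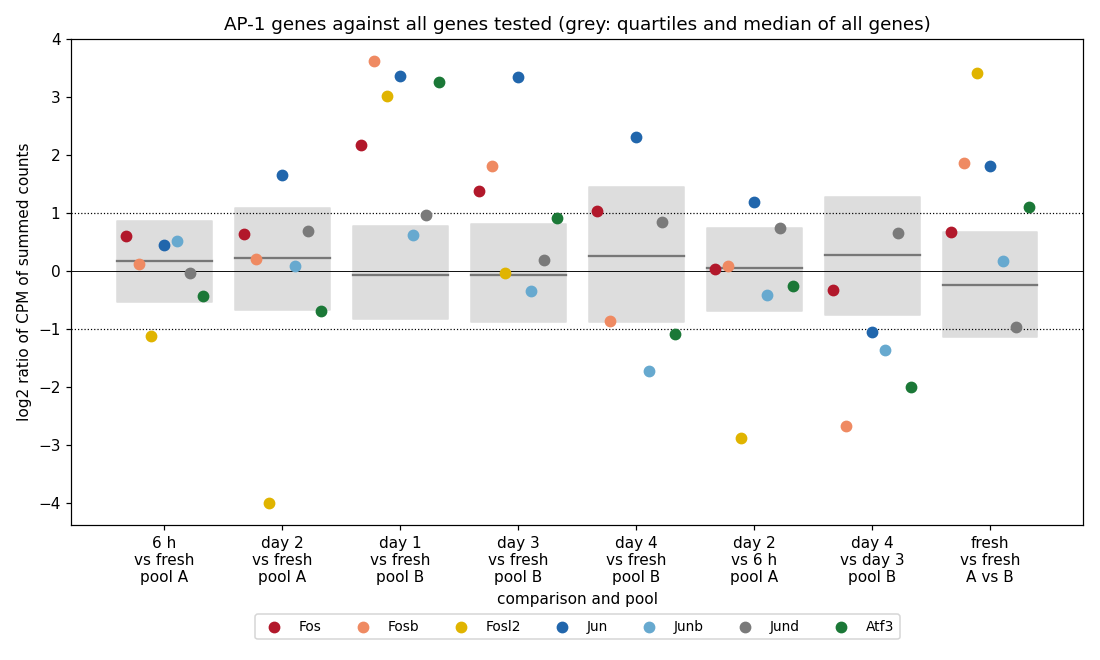
Log2 ratios of summed CPM for each AP-1 gene (coloured points) in the 8 comparisons, with the quartiles (grey box) and the median (grey line) of all genes tested, and dotted lines at the 2-fold limits. On day 1 against fresh cells 5 members lie above the upper limit, on day 2 Fosl2 lies lowest at −4.00, and on day 4 Fosl2 is not drawn because it was below the minimum count.

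Day 1 was also compared with fresh cells of pool B inside the gates. In the Cd79a gate the log2 ratios were 2.69 for Fos, 3.63 for Fosb, 1.47 for Jund and 0.94 for Junb, so that 3 members were higher past the fold, beside 24.2% of genes. Jun, Fosl2 and Atf3 were under the minimum count in this gate. In the Cd3e gate they were 2.46 for Fos, 4.54 for Fosb, 5.23 for Jun, 2.93 for Fosl2, 0.57 for Junb and −0.06 for Jund, beside a median of 0.47 over all genes, with 4 higher past the fold beside 37%, from 7 cells against 44. In the C1qb gate Jun was higher at 1.45, Jund at 1.39 and Fosb at 1.07, beside 16%, while Fos stood at −0.13, Junb at −0.60 and Atf3 at −0.32. On day 3, 4 of 5 members were higher and 0 lower in the Cd3e gate, beside 36.5% and 17.2%, with a median of 2.03 against 0.42. In the Cd79a gate 2 of 4 were higher and 0 lower, beside 36.7% and 17.6%, with a median of 1.14 against 0.43. In the C1qb gate 0 of 6 were higher and 1 lower, beside 14.4% and 33.5%, with a median of −0.24 against −0.38.

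S100a8-gated cells had the most members past the fold at 6 h. Fos was 2.12 higher than in fresh cells on the log2 scale, Jun 1.96, Atf3 1.66, Junb 1.34 and Fosb 1.06, so 5 of 7 members were higher past the fold beside 23.7% of genes, and Jund was lower at −1.26 beside 25.2%. The median of the members was 1.34, and it was 0.57 on the mean of log2(rpm + 1) and 0.75 with a gate minimum of 1 read. The median cell held 7153 rpm of Fos at 6 h against 1630 rpm fresh, and 5547 rpm of Junb against 2204 rpm, with 16 and 21 cells. In the C1qb gate at 6 h, which held 5 cells, Fos was lower at −3.19, Fosb at −1.67 and Junb at −1.04, beside 16.9% lower. In the Cd3e gate 2 of 5 members were higher and 2 lower, beside 21.6% and 24.3%, with a median of −0.48 against −0.04. In the Csf1r gate 2 of 7 were higher and 1 lower, beside 23.9% and 17.8%, with a median of 0.22 against 0.16.

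Single cells held several members at once. The median cell had a read of 5 of the 7 members in fresh cells of pool A, 4 at 6 h and 3 on day 2, and of 3 in fresh cells of pool B, 6 on day 1, 3.5 on day 3 and 2 on day 4. All 7 were read in 15 of 75 cells on day 1 and in at most 5 cells of any other group. Cells with no member at all numbered 0 of 81 in fresh cells of pool B, 11 of 82 on day 3 (13.4%) and 6 of 19 on day 4 (31.6%). The share was highest in the group with the fewest genes per cell.

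The summed rpm of the 7 members had a median of 3189 in fresh cells of pool B, 10008 on day 1 and 4062 on day 3, with upper quartiles of 4623, 20370 and 9680 rpm. In the C1qb gate of that pool the medians ran the other way, at 7016 rpm fresh, 5489 on day 1 and 1985 on day 3, while they were 2585, 6236 and 4571 rpm in the Cd3e gate and 3809, 17000 and 9309 rpm in the Cd79a gate. In pool A the medians were 4752 fresh, 6366 at 6 h and 4712 on day 2. Fos and Jun, the classical pair, were read together in 13.6% of fresh cells of pool B, 57 of 75 cells on day 1 and 53.7% on day 3. In pool A they were read together in 42.7%, 48.7% and 51.3%. Among cells with a Fos read, Jun was read in 19.6% of fresh cells of pool B and 83.8% on day 1.

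Members also varied together among cells of the same group and gate. Over 462 cells, after subtracting the mean of the cell's timepoint, pool and gate, the Spearman correlation of log2(rpm + 1) was 0.55 for Fos and Junb, 0.42 for Fos and Fosb, 0.39 for Fosb and Junb and 0.38 for Fos and Jun. The lowest was −0.06 for Fosl2 and Atf3. These describe cells that share a library and a depth, and carry no test.

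Among the genes whose reads were most like the summed rpm of the 7 members over those 462 cells, of 6607 genes read in at least 10% of cells, were Dusp1 (rho 0.60), a phosphatase that inactivates MAP kinases, and Egr1 (0.52), another immediate early transcription factor. Further genes of that group were Zfp36 (0.49), which destabilises AU-rich mRNAs, Ppp1r15a (0.48), of the integrated stress response, Ier2 (0.44), Nfkbia (0.41), the NF-kB inhibitor, Btg2 and Klf6 (both 0.40) and Klf2 (0.39). All of those named are on the list of immediate early and feedback genes. The median over all genes was 0.02.

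That list of 28 genes was compared in the same way. On day 1, 18 of its 27 genes above the minimum were higher past the fold and 0 lower, beside 20.1% and 21% of all genes, with a median of 1.44. Klf4, a zinc finger transcription factor, was highest at 3.65 and Cd69, an early activation marker of lymphocytes, was lowest at −0.66. Inside the gates on day 1 there were 15 higher and 0 lower of 24 in the Cd3e gate, beside 37% and 15.1%, and 16 and 1 of 25 in the Cd79a gate, beside 24.2% and 24.1%. In the C1qb gate there were 3 higher and 8 lower of 25, beside 16% and 32.1%, with a median of −0.09 against −0.37 over all genes. On day 3 there were 8 higher and 4 lower of 27, beside 21.1% and 22.4%, from Egr2 at 2.95 to Nr4a2 at −1.77. On day 4 there were 4 higher and 6 lower of 22, beside 33.2% and 22.8%. At 6 h there were 4 and 4 of 27, beside 21.5% and 15.1%. On day 2 there were 9 and 4 of 27, beside 27.1% and 18.4%, with Cd69 highest at 2.68 and Socs3, a cytokine signalling inhibitor, lowest at −1.92. The counts of the times other than day 1 lay nearer to those shares than the day 1 count did.

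The other bZIP genes of the AP-1 superfamily (18 genes of the Batf, Atf, Creb, Maf and Nfe2l2 groups, Jdp2 and Fosl1) were counted in the same way. On day 1, 3 of 13 above the minimum were higher past the fold and 1 was lower, beside 20.1% and 21% of all genes, with a median of 0.38 against −0.08, and Mafg was lowest at −1.98. On day 2, 2 of 16 were higher and 8 lower, beside 27.1% and 18.4%, with a median of −1.13 against 0.23 over all genes and 0.20 over the 7 members, from Maf at 1.74 to Mafg at −6.90. Of the 21 upstream genes, kinases of the MAP kinase cascades and factors that act on the Fos and Jun promoters, 4 were higher and 4 lower of 21 on day 1, beside the same 20.1% and 21%, with Mapk3, which encodes Erk1, highest at 3.12 and Mapk8, which encodes Jnk1, lowest at −3.11. Their median was 0.10 against −0.08.

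Fos lies at chr12:85473890-85477273, Fosb at chr7:19302696-19310051, Fosl2 at chr5:32135801-32157842, Jun at chr4:95049034-95052222, Junb at chr8:84974484-84978718, Jund at chr8:70698949-70700616 and Atf3 at chr1:191170296-191218039 (GRCm38, GENCODE M21), and all are protein coding. Jun and Jund each have a single exon. The antisense gene Junos overlaps 689 bases of Jun on the other strand. As counting ignored the strand, reads of the 2 genes in the overlap cannot be told apart, so the Jun values carry that limit.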

How the data were processed

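Per the methods, the authors cut reads at 75 bp, dropped duplicates (picard MarkDuplicates), aligned the remainder with STAR to GRCm38, and assigned them to genes using HTSeq in intersection-strict mode with strand ignored. Versions were not given in the sources used here. Deposited values are raw counts, whole numbers with 1 column per cell. The 96 ERCC rows and 1 vector row name no gene, hold 0.140% of counts and were left out. The 18S row Rn18s.rs5 (6.60% of gene counts) was kept.

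Cells were grouped by timepoint and pool number. Each group is 1 sample, so counts were not tested with edgeR or another model. Counts were scaled to the reads on all genes of a cell (rpm) or summed over cells (CPM), and compared as log2 ratios for genes whose sums both reached 50 counts. The calculation of ratios was checked on simulated Poisson sums with planted ratios. Such sums hold no spread between cells, so the check does not bear on that spread. Shares carry exact Clopper-Pearson intervals. Doublets were not called, and cells with at least 10 reads of more than 1 of Cd3e, Cd79a, C1qb and S100a8 entered no gate. Named were the 7 members, the gate genes, the genes of 3 lists with the largest and smallest ratio in a comparison described, and the 10 genes most correlated with the summed members. The members and lists were chosen with earlier results of these data known. Alternatives were TMM (edgeR 4.0.16), size factors (DESeq2 1.42.0), no minimum count, mean rpm, mean log2(rpm + 1), thinning, cells with at least 1000 genes, gate minima of 1 and 50 reads, all fresh cells, and leaving out the top cell. Python 3.11.15, pandas 2.3.3, SciPy 1.17.1 and R 4.3.3 were used. A few genes that the rule for named genes would give are not reported here.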

Additional observations from a re-analysis of the deposited data

How the results depend on the processing

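No paired analysis was possible because replicate numbers only name cells and no result comes from a test. With no replicates, a log2 ratio counts as moved when an alternative shifted it by over 0.5. Of 303 alternative medians of the AP-1 genes 240 stayed within that limit and 63 moved, and of 1754 alternative ratios of single members 1420 stayed within it and 330 moved. The settings were uneven. The mean of log2(rpm + 1) moved 21 medians and kept 8, and leaving out the top cell moved 13 and kept 16. With 18S and mitochondrial genes left out of the total, all 29 stayed. The sign differed from the main value in 41 ratios on the mean of log2(rpm + 1) and in 63 under the other alternatives, and in 4 of these cases the main value was past the 2-fold limit. The causes were not tested. Median log2 ratios that moved are given by setting, each against fresh cells of the same pool unless stated, and over all cells unless a gate is named.

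On the mean of log2(rpm + 1), which weights cells without a read, the median was −1.58 on day 2, 3.95 on day 1, 0.38 on day 3, −0.89 on day 4, −1.19 for day 2 against 6 h, −1.83 for day 4 against day 3 and 2.62 for fresh cells of pool A against pool B. In the C1qb gate it was −4.36 at 6 h, −3.60 on day 2, −1.63 on day 3, −3.98 on day 4 and 1.52 between the fresh pools. It was 0.57 in the S100a8 and 0.78 in the Csf1r gate at 6 h, −0.81 in the Cd3e and −1.12 in the Csf1r gate on day 2, 2.68 and 0.60 in the Cd79a gate on days 1 and 3, and, for day 2 against 6 h, −0.81 in the Cd3e, −1.5 in the Cd79a and −0.31 in the Csf1r gate. The 4 that turned from past the 2-fold limit fell here: Fos on day 4 (−3.13), Atf3 on day 4 (0.26), and, in the C1qb gate, Atf3 for day 2 against 6 h (−0.18) and between the fresh pools (0.47).

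Without the top cell of each gene it was 1.44 on day 3, −0.94 on day 4 and 2.04 between the fresh pools. In the C1qb gate it was −1.86 at 6 h, 1.23 on day 1, −0.94 on day 4, 1.74 for day 2 against 6 h and −2.25 for day 4 against day 3. In the Cd3e gate it was −0.10 on day 2, 0.71 on day 3 and 1.88 between the fresh pools, in the Cd79a gate 0.44 on day 3, and in the Csf1r gate −0.35 for day 2 against 6 h. With no minimum count it was −0.86 on day 4, 1.06 and −0.050 in the Cd3e gate at 6 h and day 2, −1.67 and 1.07 in the C1qb gate at 6 h and day 1, and 2.69 and 2.23 in the Cd79a gate on days 1 and 3. Against all fresh cells it was 1.78 on day 1 and −0.57 on day 4.

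Thinned to 100000 reads it was 0.88 on day 4, −0.077 in the C1qb gate on day 1, 1.01 in the Cd3e gate on day 3, and 1.54 in the C1qb and −0.0094 in the Csf1r gate for day 2 against 6 h. A gate minimum of 1 read gave 0.75 in the S100a8 gate at 6 h, 1.89 in the Cd3e gate on day 2, −0.72 in the C1qb gate on day 4 and −1.0 in the Cd3e gate for day 2 against 6 h, and a minimum of 50 gave 2.71 in the Cd79a gate on day 1. TMM gave 0.18 in the Csf1r gate on day 2, 2.18 in the Cd3e gate on day 1, −0.066 in the Csf1r gate for day 2 against 6 h and −2.23 in the C1qb gate for day 4 against day 3. Size factors of DESeq2 gave 0.23 in the Csf1r gate on day 2, 0.00036 there for day 2 against 6 h and −2.16 in the C1qb gate for day 4 against day 3. Cells with at least 1000 genes gave −0.85 in the C1qb gate on day 4. Mean rpm gave 1.55 in the C1qb gate for day 2 against 6 h and 1.62 between the fresh pools. Depth limits a cell without a read of a member to a level not detected there.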

Other observations

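The 16 cells of day 4 in pools C and A have no comparison, as pool C holds no fresh cell and pool A only 2 cells of that day. In the 14 cells of pool C, which had a median of 2987 genes with a read, Jun was read in 71.4% of cells (exact binomial 95% interval 41.9 to 91.6), Fos in 64.3%, Junb in 78.6%, Fosb in 57.1% and Atf3 in 35.7%. Their summed levels were 3201 CPM for Fos, 1006 CPM for Jun, 618 CPM for Junb, 582 CPM for Atf3 and 218.5 CPM for Fosb. In the 19 cells of day 4 in pool B, with a median of 1130 genes, the shares were 36.8% for both Jun and Fos and 42.1% for Junb. The pools of day 4 thus differed in genes per cell and in the members at the same timepoint. Both cells of pool A had a read of Jun, Junb and Atf3, and 1 of them held 99.6% of the Junb reads.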
